A study of Mus musculus with 10 samples.

Results

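Globin and erythroid genes were examined in RNA-seq libraries of mouse lung. The list named 8 genes, the globins Hba-a1, Hba-a2, Hbb-bs and Hbb-bt, the haem synthesis gene Alas2, the membrane gene Slc4a1, the enzyme gene Bpgm and the globin chaperone gene Ahsp. Of these, 6 had a row in the deposited table and Hbb-bt and Ahsp had none. The 6 genes held 9 transcript rows, out of 66548 rows and 24394 gene symbols in all, and the rows of a symbol were summed and counted as 1 observation. The genes were selected on their FPKM differences between the groups in these same 10 libraries, so that their differences between the groups are given below as a description and carry no p-value. All mice were female BALB/c, bought at an age of 8 weeks by the methods. The Saline mice (n = 3) were controls that received saline only. The OVA mice (n = 3) were sensitized to ovalbumin with an alum adjuvant by injection and then challenged with ovalbumin through the nose, a model of allergic airway inflammation. By the methods, ovalbumin mice were given either vehicle or a plant extract by mouth. The Herb mice (n = 4) were treated with ovalbumin in the same way and were given the ethanol extract of Descurainia sophia seeds. Each library came from frozen lung tissue, and neither the labels nor the methods say whether the lungs were flushed of blood.

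Haemoglobin carries oxygen in red blood cells and is built from alpha and beta globin chains, each holding a haem group. Mature mouse red cells have lost their nucleus, but the youngest ones in the circulation, the reticulocytes, still carry globin mRNA and the mRNAs of haem synthesis, of the membrane skeleton and of red cell enzymes. The lung receives the whole output of the right heart, so that RNA from a lung that has not been flushed includes RNA of blood cells. Mice carry pairs of nearly identical adult alpha globin genes and of adult beta globin genes, and the beta pair differs between strains: the reference genome comes from C57BL/6, which carries Hbb-bs and Hbb-bt, whereas BALB/c mice carry the Hbb-b1 and Hbb-b2 pair.

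Fragments of nearly identical globin copies can be given to either row, so the only coding bases at which the copies of the reference differ are shown first. In the GENCODE annotation of GRCm38, the 426 coding bases of Hba-a1 (chr11:32283511-32284465, plus strand) and Hba-a2 (chr11:32296489-32297298, plus strand) differed at 1 base, C381T, counted from 1 at the start codon with the base of Hba-a1 first. The 441 coding bases of Hbb-bs (chr7:103826534-103827928, minus strand) and Hbb-bt (chr7:103812524-103813996, minus strand) also differed at 1 base, C417T, with the base of Hbb-bs first. Both differences lie in exon 3, fall on the third position of a codon and leave the amino acid the same. The identical stretches before them ran for 380 and 416 bases. The windows of 30 coding bases around the differences are, 5′ to 3′ with the differing base in capitals:
Hba-a1, chr11:32284328-32284357: gcatgcctctctggaCaaattccttgcctc
Hba-a2, chr11:32297145-32297174: gcatgcctctctggaTaaattccttgcctc
Hbb-bs, chr7:103826678-103826707: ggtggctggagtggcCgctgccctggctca
Hbb-bt, chr7:103812669-103812698: ggtggctggagtggcTgctgccctggctca
A fragment from the rest of the coding sequence matches both copies equally, and its row was decided by the authors' software. The GENCODE transcripts also differ outside the coding sequence. Their lengths are 699 and 554 bases for Hba-a1 and Hba-a2 and 628 and 703 for Hbb-bs and Hbb-bt. The deposited rows carry RefSeq identifiers, and in RefSeq the genes Hba-a1 and Hba-a2 span 815 and 819 bases. Hbb-bt has no row in the table, so its base separates no rows there. Levels of single copies are therefore uncertain, whereas the sum over the rows of a locus is less open to that choice.

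The depth of the libraries was estimated at 14700000 to 29400000 fragments from the smallest steps of the FPKM values (fragments per kilobase, relative to all mapped fragments of a library). Protein-coding RefSeq rows took 18.5 to 21.3% of the summed FPKM in Saline, 3.36 to 4.68% in OVA and 8.44 to 13.6% in Herb libraries. Rn45s, the precursor of ribosomal RNA, moved the other way, at 1201 to 1386 FPKM in Saline, 10014 to 13531 in OVA and 3230 to 7019 in Herb libraries. The median log2 fold change over the 11205 symbols tested was -0.75 for OVA vs. Saline, 0.48 for Herb vs. OVA and -0.27 for Herb vs. Saline on the deposited values. After each library was rescaled to a common 75th percentile these medians were 0.08, 0.01 and 0.09, and after rescaling to a common sum of coding rows they were 0.32, -0.11 and 0.21. In bulk lung, fewer cells of a type and less RNA per cell cannot be told apart.

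Hba-a2, an adult alpha globin gene, was among the most abundant transcripts of the Saline lungs. The Hba-a2 level was 3755, 3132 and 3728 FPKM in the 3 Saline libraries, which ranked it number 3 of all symbols in each of them. In the OVA libraries Hba-a2 was at 0.535, 273 and 28.9 FPKM. Across the Herb libraries the Hba-a2 level was 683, 816, 586 and 737 FPKM. The 3 groups did not overlap, with Saline highest, Herb between and OVA lowest, and the Herb libraries lay closer to each other than the OVA libraries did. On the log2(FPKM + 1) scale the fitted difference of Hba-a2 was -7.24 ± 1.45 (SE) for OVA vs. Saline, 4.91 ± 1.35 for Herb vs. OVA and -2.33 ± 1.35 for Herb vs. Saline.

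Hba-a1 encodes the same alpha chain from the neighbouring gene, and its rows behaved differently. It was at 17.1, 19.5 and 31.0 FPKM in Saline, at 122, 3.67 and 0.327 in OVA and at 6.32, 10.6, 4.73 and 12.7 in Herb libraries. One library, OVA replicate 1, held both the highest Hba-a1 level and the lowest Hba-a2 level of the series. There, Hba-a1 made up 99.6% of the summed alpha globin FPKM, compared with 0.453 to 1.69% in the other 9 libraries. The Hba-a2 value of that library rested on an estimated 5 and 4 fragments in its 2 rows, and the Hba-a1 value on 1300 and 1212. These estimates used the GENCODE lengths of 699 bases for Hba-a1 and 554 for Hba-a2, and those of Hba-a1 may be too high. Left without OVA replicate 1, the OVA vs. Saline difference of Hba-a2 was -5.28 and that of Hba-a1 was -3.20, against -1.32 ± 1.33 with it. Each alpha gene also had 2 rows under 1 RefSeq identifier, and those of Hba-a2 were nearly equal in Saline, at 1881 ± 139 and 1657 ± 213 FPKM (SD, n = 3).

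The lengths used for the deposited alpha rows are not given, so the FPKM per fragment may differ between them. The sum of the alpha globin rows depends less on the choice between Hba-a1 and Hba-a2. Its level was 3772, 3152 and 3759 FPKM in Saline libraries. In OVA libraries the alpha sum was 123, 276 and 29.3 FPKM, and in Herb libraries it was 689, 827, 590 and 750 FPKM. The order of the groups remained without overlap. On the log2(FPKM + 1) scale, though not in FPKM for Hba-a1, the OVA libraries lay closer to each other than for either copy alone. The alpha mean was 24.9-fold lower in OVA than in Saline, 4.999-fold higher in Herb than in OVA and 4.99-fold lower in Herb than in Saline. On the log2(FPKM + 1) scale the differences were -5.13 ± 0.65, 2.81 ± 0.61 and -2.32 ± 0.61, with standard errors below those of Hba-a2 alone.

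**Figure D1:**
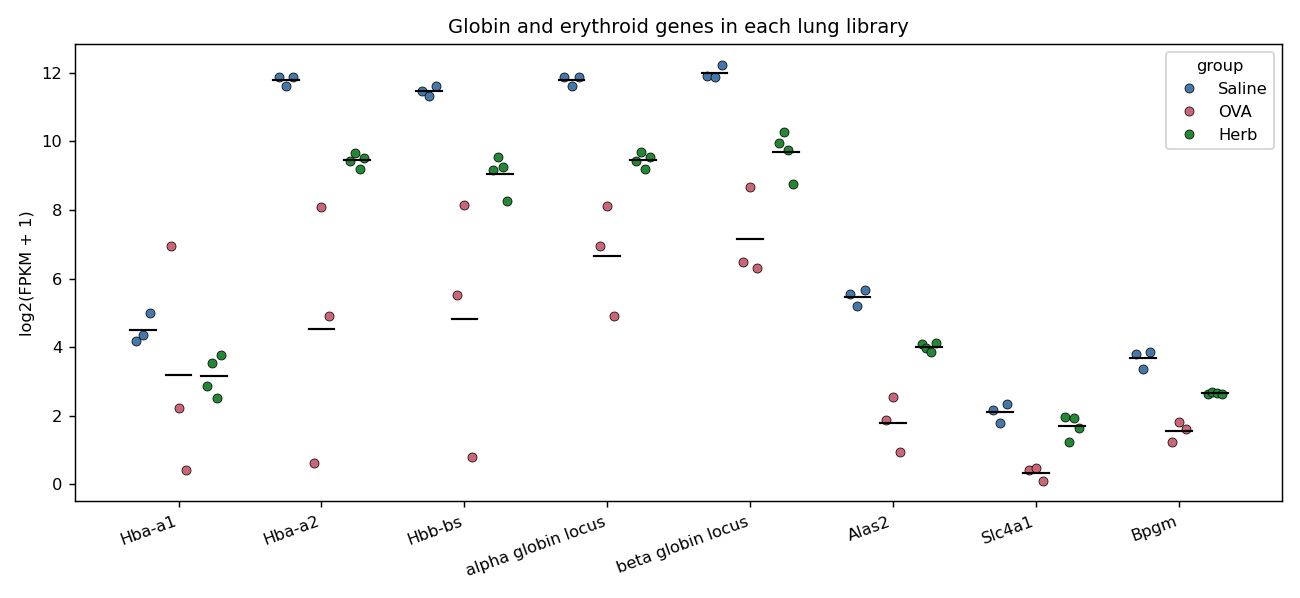
Level of each gene and of the 2 summed globin loci in every library, as log2(FPKM + 1), with 1 point per library, groups by colour and a black bar at the group mean. The alpha and beta sums separate the 3 groups, whereas Hba-a1, Hba-a2 and Hbb-bs scatter widely within OVA, where Hba-a2 runs from 0.535 to 273 FPKM.

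Hbb-bs encodes an adult beta globin chain and followed the alpha genes in the Saline and Herb lungs. It was at 2818, 2544 and 3156 FPKM in Saline libraries. In the OVA libraries Hbb-bs was at 45.4, 280 and 0.732 FPKM, and in the Herb libraries at 574, 741, 609 and 309 FPKM. Again the groups did not overlap, and 1 OVA library, this time replicate 3, was far below the other two. The fitted log2 differences of Hbb-bs were -6.65 ± 1.46 for OVA vs. Saline, 4.24 ± 1.36 for Herb vs. OVA and -2.41 ± 1.36 for Herb vs. Saline. Without OVA replicate 3 the Hbb-bs differences were -4.63 for OVA vs. Saline and 2.22 for Herb vs. OVA.

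The table also listed Hbb-b1 and Hbb-b2, the beta genes of the BALB/c type, which were no part of the chosen list. Hbb-b2 was at 1052, 1203 and 1658 FPKM in Saline, at 25.1, 123 and 32.7 in OVA and at 416, 489, 255 and 123 in Herb libraries. Hbb-b1 was below 1 FPKM in 8 libraries and at 18.5 and 44.5 FPKM in OVA replicates 1 and 3. Those libraries were the ones with the lowest share of Hbb-bs. Within the summed beta globin FPKM of OVA replicate 3, Hbb-b1 made up 57.1%, Hbb-b2 42.0% and Hbb-bs 0.939%. In OVA replicate 1 the Hbb-b1 share was 20.8%, and it was at most 0.164% in the other 8 libraries. As Hbb-b1 shares sequence with Hbb-bs, its rise in OVA (log2 difference 2.83 ± 1.05, limma adjusted p = 0.0409) and the fall in Herb vs. OVA (-2.81 ± 0.98, limma adjusted p = 0.0438) cannot be told apart from a different assignment of beta globin fragments.

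**Figure D2:**
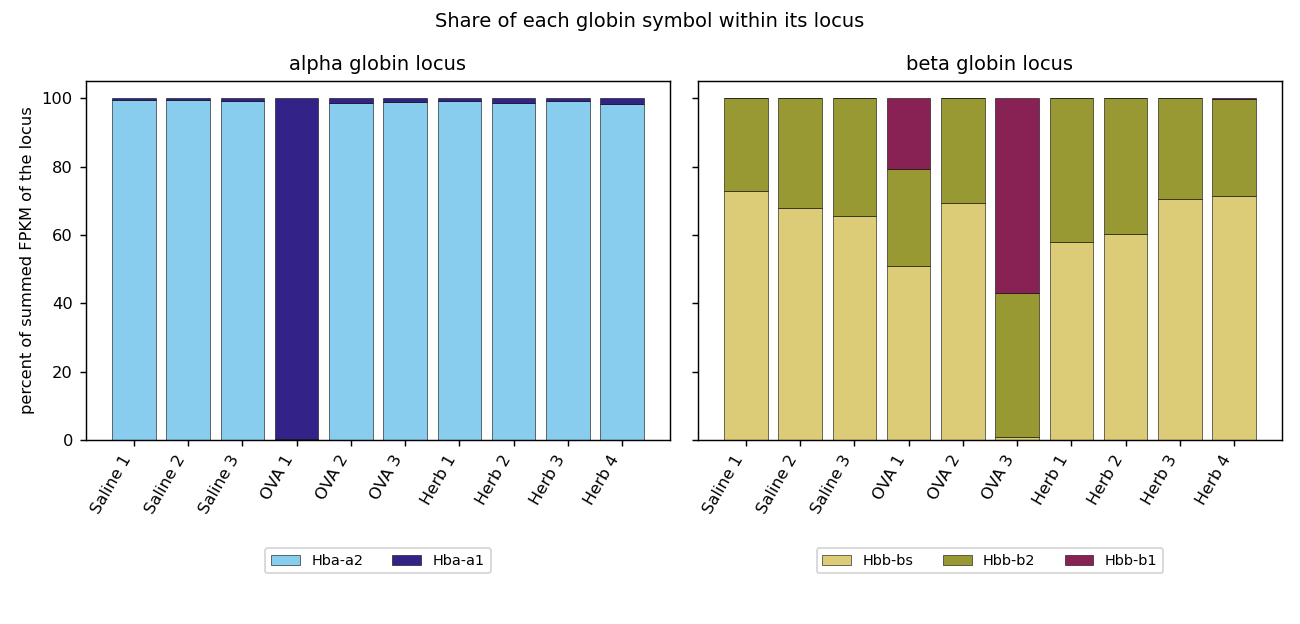
Percent of the summed FPKM of the alpha (left) and beta (right) globin locus given to each gene symbol, 1 bar per library. Hba-a1 takes 99.6% of alpha globin in OVA replicate 1 and at most 1.69% elsewhere, and Hbb-b1 takes 57.1% of beta globin in OVA replicate 3 and 20.8% in OVA replicate 1.

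The beta globin locus, summed over Hbb-bs, Hbb-b1 and Hbb-b2, was at 3870, 3748 and 4815 FPKM in Saline libraries. Its OVA values were 89.1, 403 and 78.0 FPKM and its Herb values were 990, 1230, 865 and 432 FPKM. Saline lay above Herb and Herb above OVA in every library, with the lowest Herb library, replicate 4, just above the highest OVA library. The beta mean was 21.8-fold lower in OVA than in Saline, 4.63-fold higher in Herb than in OVA and 4.71-fold lower in Herb than in Saline. The log2 differences of the beta sum were -4.86 ± 0.61, 2.53 ± 0.57 and -2.32 ± 0.57, close to those of the alpha sum.

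Alpha and beta globin together, called adult globins here, were at 7705 ± 839 FPKM in Saline, 333 ± 305 in OVA and 1593 ± 370 in Herb libraries (SD, n = 3, 3 and 4). The adult globins took 4.68 to 6.28% of all coding FPKM in Saline, 0.206 to 1.28% in OVA and 1.37 to 2.09% in Herb libraries. Taken as a share of coding RNA, the OVA and Herb ranges therefore lay next to each other without overlap, and both were below Saline. The log2 difference was -4.94 ± 0.56 for OVA vs. Saline, 2.64 ± 0.53 for Herb vs. OVA and -2.30 ± 0.53 for Herb vs. Saline. Rescaled to the common 75th percentile, these values were -3.78, 1.96 and -1.82, and with the common coding sum they were -3.46, 1.79 and -1.67. Thus the direction of the adult globins did not depend on the scaling, and the size did.

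Red cells make alpha and beta chains in near balance, and the ratio of the summed FPKM can be read within a library, where scaling between libraries plays no part. The beta to alpha ratio was 1.03, 1.19 and 1.28 in Saline libraries. It was 0.726, 1.46 and 2.67 in OVA libraries and 1.44, 1.49, 1.47 and 0.577 in Herb libraries. Herb replicate 4 and OVA replicate 1 were the only libraries with less beta than alpha. Besides named transcripts the table holds assembled models that carry no gene symbol, and the 7 models listed between the globin rows were examined because they may hold globin fragments. A model among the beta globin rows was at 521 FPKM in Herb replicate 4 and 67.8 in OVA replicate 1, and at most 0.137 FPKM in the other 8 libraries. With these models added, the beta to alpha ratio was 1.02, 1.1 and 1.25 in Saline, 1.28, 1.45 and 2.67 in OVA and 1.62, 1.63, 1.78 and 1.21 in Herb libraries. All 10 ratios were then above 1, and OVA replicate 3 stayed the highest. The adult globin total with models was 7791 to 9335 FPKM in Saline, 107 to 681 in OVA and 1700 to 2268 in Herb libraries, so that the order of the groups was kept and the Herb libraries drew together. The place of these models was read from the order of the rows alone, since the table gives no positions.

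**Figure D3:**
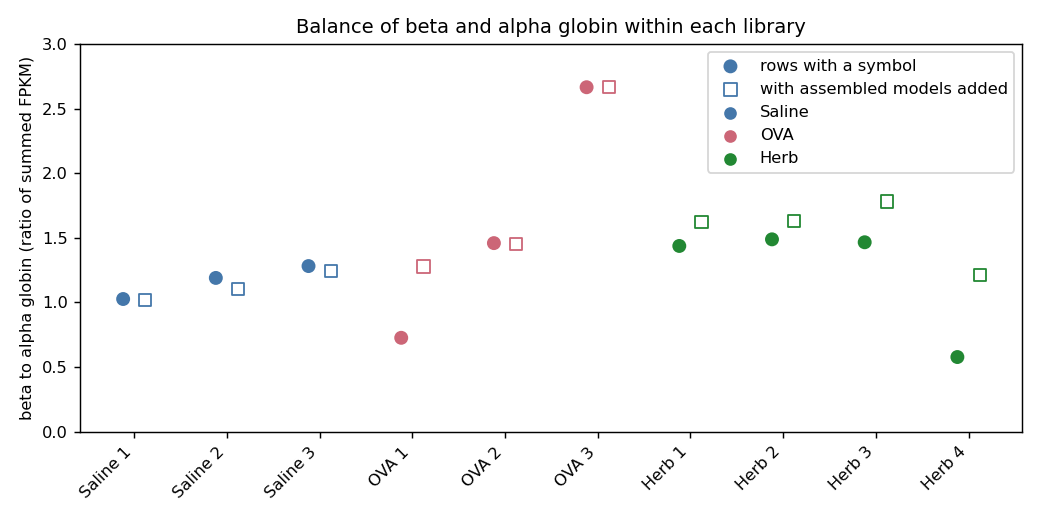
Ratio of summed beta to summed alpha globin FPKM in each library, from rows with a gene symbol (filled circles) and with the assembled models listed between the globin rows added (open squares). With the models, Herb replicate 4 moves from 0.577 to 1.21 and OVA replicate 1 from 0.726 to 1.28, while OVA replicate 3 stays at 2.67.

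Alas2 encodes the erythroid form of the first enzyme of haem synthesis, and it has no near-identical copy among the rows. Its level was 45.6, 35.6 and 50.3 FPKM in Saline libraries. The OVA libraries held 2.69, 4.89 and 0.930 FPKM of Alas2, and the Herb libraries 16.0, 14.8, 13.5 and 16.6 FPKM. The groups were well separated in the same order as the globins, and the Herb libraries lay close together, with an SD of 1.40 FPKM. The Alas2 mean was 15.4-fold lower in OVA than in Saline, 5.36-fold higher in Herb than in OVA and 2.88-fold lower in Herb than in Saline. On the log2(FPKM + 1) scale this was -3.67 ± 0.34, 2.22 ± 0.32 and -1.46 ± 0.32, and at the common 75th percentile -2.72, 1.72 and -0.99. Relative to the globins, Alas2 was at 5.15 to 5.96 FPKM per 1000 FPKM of adult globins in Saline, at 7.19 to 12.7 in OVA and at 7.17 to 14.0 in Herb libraries. Alas2 was thus lower by a smaller factor than the globins in both ovalbumin groups. The shorter of its 2 RefSeq rows, NM_001102446, gave 18.5 to 24.9% of Alas2 in Saline, 0 to 11.7% in OVA and 0 to 53.3% in Herb libraries, with Herb replicate 3 highest.

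Slc4a1 encodes band 3, the anion exchanger of the red cell membrane, and was low in all libraries. It was at 3.54, 2.43 and 4.13 FPKM in Saline, 0.330, 0.396 and 0.0805 in OVA and 2.90, 1.35, 2.84 and 2.119 in Herb libraries. The OVA libraries lay below all others, whereas the Herb and Saline ranges overlapped. An estimated 44, 42 and 7 fragments stood behind the OVA values of Slc4a1. The log2 difference was -1.77 ± 0.23 for OVA vs. Saline and 1.36 ± 0.22 for Herb vs. OVA. For Herb vs. Saline it was -0.41 ± 0.22, but -0.06 at the common 75th percentile and 0.05 at the common coding sum, so that Slc4a1 gave no stable direction there.

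Bpgm encodes bisphosphoglycerate mutase, which makes the small molecule that lowers the oxygen affinity of haemoglobin. The level of Bpgm was 13.1, 9.26 and 13.6 FPKM in Saline libraries. In OVA it was 1.35, 2.53 and 2.06 FPKM, and in Herb 5.26, 5.51, 5.29 and 5.23 FPKM. The 3 groups were separate, and the Herb libraries were nearly identical, with an SD of 0.131 FPKM. The Bpgm mean was 6.04-fold lower in OVA than in Saline and 2.68-fold higher in Herb than in OVA. Its log2 differences were -2.124 ± 0.18, 1.103 ± 0.17 and -1.02 ± 0.17 for the 3 comparisons, and -1.21, 0.63 and -0.59 at the common 75th percentile.

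The following counts are no test, as the genes were chosen on these same differences. Counted by symbol, 5 of the 6 genes passed an adjusted p under 0.05 in limma as lower in OVA than in Saline. Of the 11205 symbols tested, 57.9% did. For Herb vs. OVA, 5 of 6 passed as higher, where 44.0% of all symbols did. For Herb vs. Saline, 2 of 6 (Alas2 and Bpgm) passed as lower, where 22.7% of all symbols did. At the common 75th percentile the same count for OVA vs. Saline was 5 of 6, beside 17.2% of all symbols. For Herb vs. OVA every call was lost at that scaling, with 0 of 6 beside 0.348% of all symbols, and for Herb vs. Saline 1 of 6 (Bpgm) passed as lower, beside 5.09%. Groups without overlap were found for 5 of the 6 genes in each comparison, against 63.0%, 49.6% and 36.6% of all symbols in the same directions. These counts come from the comparisons by which the genes were chosen, and nothing is read from them. The 3 comparisons share libraries in pairs, so that a low OVA value moves OVA vs. Saline and Herb vs. OVA together.

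The other genes of red cell biology were taken from 5 lists of 69 symbols, of which 66 had a row and 35 reached a mean of 1 FPKM and were tested. For OVA vs. Saline, 25 of the 35 were lower, 1 (Hbb-b1) was higher and 9 did not pass, with a median log2 difference of -1.23 beside -0.75 over all symbols, of which 57.9% were lower and 3.28% higher. For Herb vs. OVA, 19 were higher, Hbb-b1 was lower and 15 did not pass, and for Herb vs. Saline 13 were lower and 22 did not pass. The medians were 0.62 and -0.54, beside 0.48 and -0.27 over all symbols, of which 44.0% were higher and 0.446% lower for Herb vs. OVA and 22.7% lower and 3.32% higher for Herb vs. Saline. At the common 75th percentile the split for OVA vs. Saline was 11 lower and 6 higher, where 17.2% of all symbols were lower and 24.1% higher. For Herb vs. OVA 1 gene was then higher, beside 0.348% of all symbols, and for Herb vs. Saline 3 were lower and 2 higher, beside 5.09 and 10.6% of all symbols.

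**Figure D4:**
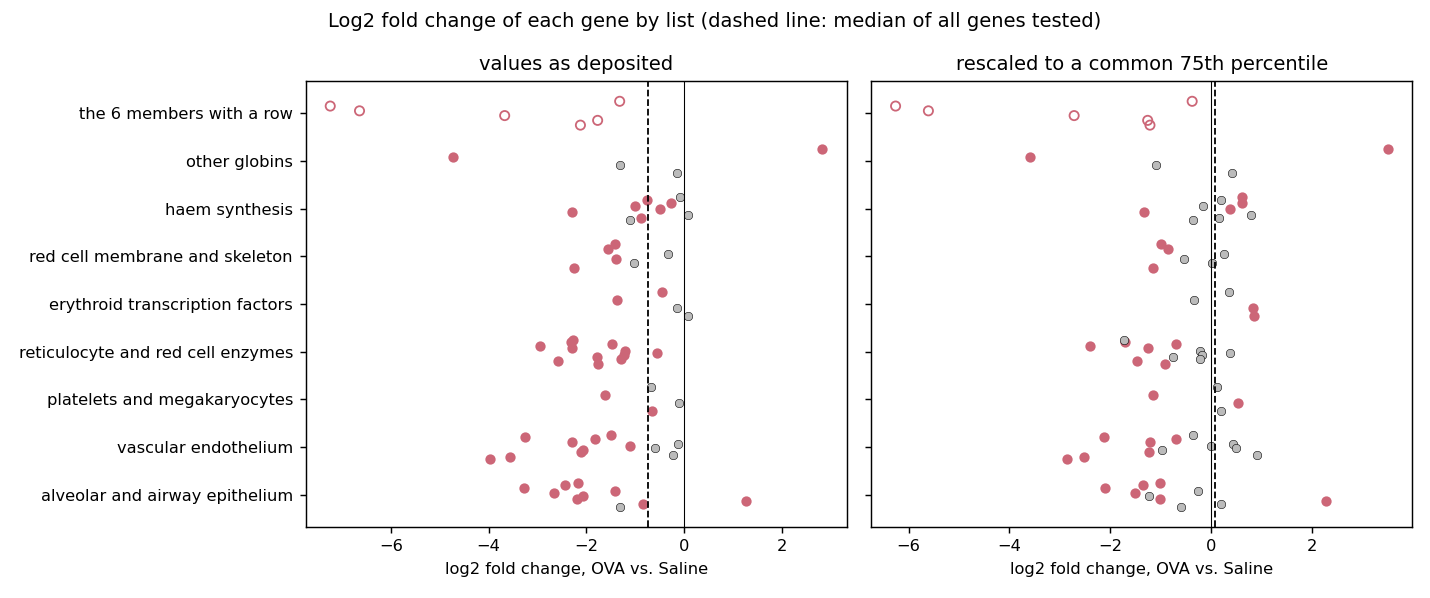
Log2 fold change for OVA vs. Saline of each tested gene by list, on the deposited values (left) and at a common 75th percentile (right), with filled red points for an adjusted p under 0.05, grey points for the others, open points for the 6 chosen genes, which carry no test, and a dashed line at the median of all symbols. That median is -0.75 on the left and 0.08 on the right, and the reticulocyte and red cell enzymes lie mostly to the left of it in both panels.

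Among the genes of reticulocytes and red cell enzymes, 12 of 12 tested were lower in OVA than in Saline, 8 were higher in Herb than in OVA and 7 were lower in Herb than in Saline, beside 57.9, 44.0 and 22.7% of all symbols. These counts were 6, 1 and 2 at the common 75th percentile, beside 17.2, 0.348 and 5.09%. Cat, the catalase that removes hydrogen peroxide and is made in many cell types, fell by 2.57 on the log2 scale in OVA vs. Saline (limma adjusted p = 0.000149). Slc25a37, the mitoferrin that brings iron into the mitochondrion for haem synthesis, fell by 2.31 in OVA vs. Saline (limma adjusted p = 0.000722), and its difference of 0.98 ± 0.36 for Herb vs. OVA missed the threshold (limma adjusted p = 0.051). Bnip3l, which drives the removal of mitochondria from reticulocytes, rose by 1.45 in Herb vs. OVA (limma adjusted p = 0.00716) and did not pass at the common 75th percentile (0.86, adjusted p = 0.0739).

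Of the haem synthesis genes other than Alas2, 6 of 9 were lower in OVA than in Saline, near the 57.9% of all symbols. For Herb vs. OVA, 6 of 9 were higher, beside 44.0% of all symbols. At the common 75th percentile 1 was lower and 3 were higher in OVA than in Saline, and 0 were higher in Herb than in OVA. The shares of all symbols were 17.2, 24.1 and 0.348%. Fech, ferrochelatase, which inserts iron into the ring in the last step of the pathway, was at 18.5, 13.9 and 18.8 FPKM in Saline, 2.21, 3.58 and 2.27 in OVA and 6.99, 6.72, 6.01 and 6.47 in Herb libraries. Its difference of -2.30 ± 0.17 for OVA vs. Saline (limma adjusted p = 0.000136) stayed at -1.34 at the common 75th percentile (adjusted p = 0.000765). Alas1, the form of the first enzyme that all tissues use, differed by -0.08 ± 0.17 for OVA vs. Saline (limma adjusted p = 0.712), and at the common 75th percentile by 0.60 (adjusted p = 0.0242). Cpox, coproporphyrinogen oxidase, turned from lower to higher with that scaling, from -0.50 to 0.37. Urod, the enzyme of the step before it, was lower at -1.01 ± 0.23 (limma adjusted p = 0.00458) and did not pass at the common 75th percentile (-0.17, adjusted p = 0.584).

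For the membrane and its skeleton, 4 of 6 tested genes were lower in OVA, 3 were higher in Herb than in OVA and 2 were lower in Herb than in Saline. Of all symbols, 57.9, 44.0 and 22.7% were. The 3 counts of membrane genes were 3, 0 and 0 at the common 75th percentile, beside 17.2, 0.348 and 5.09% of all symbols. Aqp1, the water channel of red cells that lung endothelium also makes, fell by 2.26 in OVA vs. Saline (limma adjusted p = 0.00135) and rose by 1.72 in Herb vs. OVA (adjusted p = 0.0098), which did not pass at the common 75th percentile (1.08, adjusted p = 0.103). Among the erythroid transcription factors, 2 of 4 tested were lower in OVA, namely Lmo2 at -1.37 (limma adjusted p = 0.000571) and Tal1 at -0.45 (adjusted p = 0.0274), and both genes are also active in endothelium. This count was below the 57.9% of all symbols, and at the common 75th percentile 0 were lower and 2 were higher, beside 24.1% of all symbols. Those were Ldb1 at 0.83 (limma adjusted p = 0.00375) and Zfpm1 at 0.84 (adjusted p = 0.0226), while Lmo2 was at -0.33 (adjusted p = 0.193) and Tal1 at 0.35 (adjusted p = 0.119). Gata1 and Klf1, which switch on globin genes in nucleated red cell precursors, were not tested, at no more than 0.362 and 0.290 FPKM in any library. Embryonic globins Hba-x, Hbb-y, Hbb-bh1 and Hbb-bh2, and the red cell carbonic anhydrase Car1, were listed at 0 in all 10 libraries. Hbq1b, a theta globin of the alpha locus, was at 0.604 to 0.765 FPKM in Saline, listed at 0 in the 3 OVA libraries and at most 0.473 FPKM in Herb libraries, and was not tested. Myoglobin (Mb) and cytoglobin (Cygb), globins of muscle and connective tissue cells, did not pass in any comparison, with limma adjusted p of 0.269 and 0.611 for OVA vs. Saline.

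Most tested markers of other lung cell types were also lower in OVA, where 57.9% of all symbols were. Of 12 endothelial markers, 9 were lower in OVA than in Saline and 3 did not pass, and their summed level was 750 to 857 FPKM in Saline, 131 to 236 in OVA and 322 to 588 in Herb libraries. Of 10 epithelial markers, 8 were lower, Foxj1 of ciliated cells was higher and 1 did not pass, with sums of 17544 to 27086, 3052 to 5693 and 8900 to 14093 FPKM. Of 12 leukocyte markers, 6 of the 8 tested were lower, with sums of 1371 to 1692, 77.5 to 322 and 366 to 1004 FPKM. The eosinophil markers Prg2 and Epx, too low to be tested, went the other way. Prg2 was listed at 0 in the 3 Saline libraries and at 0.876 to 1.65 FPKM in OVA. Epx was at no more than 0.0174 FPKM in Saline and 0.0316 to 0.0858 in OVA. Siglecf, a further leukocyte marker of the list that eosinophils carry, was tested and was lower in OVA (-1.33, limma adjusted p = 0.00078). In Saline it was at 2.97 to 4.43 FPKM, where Prg2 was listed at 0, so it cannot be read as a measure of eosinophils alone. It stayed lower at the common 75th percentile (-0.60, adjusted p = 0.0434). Platelet markers were at sums of 11.2 to 15.5, 4.24 to 7.43 and 10.8 to 14.0 FPKM, and 2 of the 4 tested were lower in OVA. After scaling to the common 75th percentile, 6 endothelial, 5 epithelial, 2 leukocyte and 1 platelet marker were lower, and 1 epithelial and 1 platelet marker were higher. Of all symbols, 17.2% were then lower and 24.1% higher. None of these markers was listed at 0 in every library. The part of these cell types in the globin levels was not tested. The ratio of the adult globins to the summed endothelial markers, which does not depend on scaling, was 9.05 to 9.998 in Saline, 0.820 to 2.88 in OVA and 3.50 to 4.28 in Herb libraries, without overlap. The ratio to Sftpc, a surfactant gene of alveolar cells, was 2.29 to 3.62 in Saline, 0.511 to 1.48 in OVA and 1.47 to 2.58 in Herb libraries, and there the Herb range overlapped with both others.

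Genes that clear haem and haemoglobin formed a further list, of which 6 of 10 tested were lower in OVA than in Saline and 4 did not pass, near the 57.9% of all symbols. At the common 75th percentile 2 were lower and 2 were higher, beside 17.2 and 24.1% of all symbols. The higher ones were Cd163 at 1.61 (limma adjusted p = 0.00449) and Slc11a1, a metal transporter of macrophages, at 0.91 (adjusted p = 0.0162). Fth1, the heavy chain of the iron store ferritin, fell by 2.29 on the log2 scale (limma adjusted p = 0.000282), and Slc48a1, which carries haem out of the lysosome, fell by 2.17 (adjusted p = 0.000252). For Herb vs. Saline, Fth1 and Slc48a1 were lower and Cd163, the macrophage receptor for haemoglobin bound to haptoglobin, was higher by 1.41 ± 0.31 (limma adjusted p = 0.0152). At the common 75th percentile Cd163 passed here (adjusted p = 0.0143), and Fth1 and Slc48a1 did not (0.172 and 0.0701). Cd163 was at 1.35, 2.51 and 1.08 FPKM in Saline, 1.82, 4.23 and 5.06 in OVA and 6.96, 4.75, 4.30 and 8.07 in Herb libraries. Its differences on the deposited values were 0.79 for OVA vs. Saline (limma adjusted p = 0.0638) and 0.62 for Herb vs. OVA (adjusted p = 0.132), and neither passed.

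Variation within the groups was described by Pearson's r over the 10 libraries, after scaling to the common 75th percentile and subtraction of the group means. The points share the libraries and their depth, and the values carry no p. With the adult globin sum, r was 0.958 for Hbb-bs, 0.859 for Alas2, 0.424 for Hba-a2, 0.355 for Slc4a1, 0.248 for Bpgm and -0.924 for Hbb-b1. Hbb-bs, Hba-a2 and Hbb-b1 are themselves parts of that sum, so that their r is partly set by it, whereas Alas2, Slc4a1 and Bpgm are not. Hba-a1 and Hba-a2 ran against each other (r = -0.746), whereas the summed alpha and beta loci ran together (r = 0.663). The genes most like Hba-a2 were Slc37a3 (r = 0.974), M6pr, Kank3, Mapk1ip1l, Btg1, Alkbh8, Nek9, Slc30a9, Rsl24d1 and Ndufs6 (r = 0.950), and those most like the adult globin sum were Ap3m1 (r = 0.964), Senp5, Hs2st1, Myct1, Mzt1, Rnf14, Gm16740, Atl3, 2900097C17Rik and Nfil3 (r = 0.931). No gene was common to both sets of 10. All 10 genes of the first set were lowest in OVA replicate 1, where Hba-a2 was at 0.535 FPKM and Hba-a1 at its highest. All 10 of the second set were lowest in OVA replicate 3, where the adult globin sum was lowest, at 107 FPKM. Each set thus leans on 1 library, and so does the r of Hba-a1 with Hba-a2. In OVA replicate 1 the split between the alpha rows is itself uncertain. Of the other red cell genes tested, Aqp1 (r = 0.834) and Cat (r = 0.757) were among the closest to the adult globin sum.

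The promoters of the 8 genes were compared last, taken from RefSeq on GRCm38.p6 as the 250 bases before the start site. Of the 8 genes, 6 had an entry, and Slc4a1 and Ahsp had none. Letters were searched on both strands: GATAA, the core bound by GATA factors, CACCC, bound by KLF factors, CCAAT, the CCAAT box, and TATAA, the TATA box. Each is common, at 22.6, 52.0, 33.8 and 22.8% of 32851 promoters, and 0.968% of the promoters held all 4. All 4 were found in Hba-a1, Hba-a2, Hbb-bs and Hbb-bt, 3 in Alas2 and 1, CCAAT, in Bpgm. The GATAA windows of the globins and of Alas2 are shown because all 5 genes hold this motif, 5′ to 3′ along the gene with the motif in capitals (TTATC is its reverse complement):
Hba-a1, chr11:32283478-32283507: gtccgggcaactGATAAggattccctgcac
Hba-a2, chr11:32296295-32296324: gtccgggcaactGATAAggattccctgcac
Hbb-bs, chr7:103828120-103828149: gttctctgcacaGATAAggacaaacattat
Hbb-bt, chr7:103814110-103814139: attagctgcaagGATAAgaacagacactac
Alas2, chrX:150547319-150547348: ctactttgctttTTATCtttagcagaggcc
The alpha windows are identical, and the motif began 182 and 185 bases before the start sites of Hba-a1 and Hba-a2, 209 and 204 before those of Hbb-bs and Hbb-bt, and 86 before that of Alas2. TATAA was placed 27 to 30 bases before the start of all 4 globin genes, and 207 and 208 before that of Alas2. A match in these letters is a description of the sequence and not a measured binding site.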

How the data were processed

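RNA-seq was performed by the authors on lung of 10 mice. According to the labels and the methods, RNA was used with an Illumina TruSeq kit, reads were trimmed with cutadapt 1.10, aligned to mm10 with HISAT2 and assembled with StringTie 1.3.3b, and the deposited table holds FPKM read out with ballgown by the authors, with no further scaling. The labels name Trizol and the methods a column kit for the extraction. Groups came from the sample titles. Nothing says that the samples of a group differ in litter or day, so p-values measure the spread between these mice.

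Rows were summed per gene symbol. Symbols with a mean of at least 1 FPKM (11205) entered limma 3.58.1 in R 4.3.3 (lmFit, eBayes with trend) on log2(FPKM + 1). The 10 libraries shared 1 model of 3 groups, with Benjamini-Hochberg adjustment over all symbols and a call at 0.05. Fold changes on this scale understate those of low genes. A value of exactly 0, which may be an estimate that failed, is given as listed at 0. FPKM shares out the fragments of a library, so that more ribosomal RNA lowers all other values. Depth was estimated from the steps of low values in 15257 single-row genes. Counts were not used here, and limma replaced the authors' edgeR test. The steps were tested on simulated data in which a small set of symbols was changed and no whole library was shifted. That test cannot speak for the fits under a shift of whole libraries, as between these groups. Alternatives were scaling, pseudocount, filter, single rows, the replicate block and leaving out each library. Locus sums, the assembled models and the likeness to the globin sum were added after seeing the data. The genes, their lists and the tests were chosen with earlier results of these data known. Besides all 8 genes, the text names from each list up to 3 genes with the largest and the smallest log2 difference among those called, other globins with a row, and the 10 symbols most like Hba-a2 in Pearson's r; Alas1, Cpox, Gata1, Klf1, Car1, Ldb1, Zfpm1, Slc11a1, Prg2 and Epx were chosen after their values were seen. Some genes of these lists are not reported here. Python 3.11.15, numpy 2.4.6, pandas 2.3.3 and matplotlib 3.10.9 were used.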

Additional observations from a re-analysis of the deposited data

Results flagged for a closer look

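Within groups of 4, 1 library far from the others is found by chance in about 1 of 20 groups, and 30 measures of the 4 Herb libraries were examined. The beta to alpha globin ratio of Herb replicate 4, 0.577, lay far below the other 3 Herb libraries, at 1.44 to 1.49, and with the assembled models added it was 1.21. In that library a model listed among the beta globin rows, which the comparisons of named genes do not use, was at 521 FPKM, against at most 0.137 FPKM in Saline. The share of Alas2 on the row NM_001102446 was 53.3% in Herb replicate 3 and at most 9.04% in the other Herb libraries, while the sum of both Alas2 rows, 13.5 FPKM, was near theirs. The ratio of the adult globins to Sftpc, a surfactant gene of alveolar cells, was 2.58 in Herb replicate 3 and 1.47 to 1.63 in the others.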

How the results depend on the processing

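No called result reversed. Of the values of single genes, single loci and ratios, 395 moved by less than the spread between replicates and 42 by more. Most of the 42 moved with scaling or the pseudocount. Part of the 395 could not move, so that number is no measure of stability. The OVA vs. Saline difference of Hba-a2, for example, was -7.24 without any Herb library, with another filter and with the replicate block. For adult globins and the numbers of called genes, 115 values counted as unchanged and 41 as moved. Without 1 library Hba-a1 ranged from -3.20 to 0.07 for OVA vs. Saline. Adult globins for OVA vs. Saline were -3.78 at the 75th percentile, -3.46 with the coding sum and -3.56 after quantile normalization, and for Herb vs. OVA 1.79 with the coding sum. Adding the assembled models gave -4.95, 2.78 and -2.17. Left without 1 library, adult globins ranged from -5.66 to -4.33, 2.04 to 3.36 and -2.43 to -2.16. The numbers of called red cell genes, 26, 20 and 13 on the deposited values, were 17, 1 and 5 at the 75th percentile, 17, 1 and 7 with the coding sum, 13, 1 and 3 after quantile normalization and 13, 11 and 6 with a mean of at least 5 FPKM, where fewer genes are tested. With a pseudocount of 0.1, 7 were called for Herb vs. Saline. Without 1 library these numbers ranged from 20 to 27, 13 to 20 and 5 to 13. Over all symbols, 6853, 4982 and 2921 were called. For OVA vs. Saline the count was 4004 after quantile normalization and 3180 with a mean of at least 5, and at the 75th percentile 4618 (2696 higher, 1922 lower). For Herb vs. OVA it was 90 at the 75th percentile (39 higher, 51 lower), 356 with the coding sum, 157 after quantile normalization and 2722 with a mean of at least 5. For Herb vs. Saline it was 1758, 2055, 841 and 1716 under these settings. Without 1 library the counts ranged from 6143 to 6862, 3225 to 5069 and 897 to 3224, lowest for Herb vs. OVA without OVA replicate 1 and for Herb vs. Saline without Saline replicate 2. The causes were not tested.

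Same-numbered libraries of different groups correlated at -0.00869 to 0.0953 and the other pairs at -0.17 to 0.227, so no pairing by number was seen. With so few libraries in a group, these values cannot exclude a pairing. With the number as a replicate block, 6603, 4040 and 1342 symbols and 25, 15 and 6 red cell genes were called, and adult globins were at -4.94, 2.78 and -2.16. The ratio of Hbb-bt to Hbb-bs was not run, since Hbb-bt has no row. With the highest row of each symbol in place of the sum, mean beta to alpha ratios were 2.18, 3.09 and 2.39 in Saline, OVA and Herb, as 1 of the 2 alpha rows is then left out. Few fragments stand behind Slc4a1 in OVA (7 to 44), Hba-a2 in OVA replicate 1 (5 and 4) and Hbb-bs in OVA replicate 3 (9).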
